A study of Macaca mulatta with 12 samples.

Results

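The joint effect of estrogen and progesterone was measured in the dorsal raphe of female rhesus monkeys as the difference between 2 differences. For every probe set, the effect of adding progesterone to estrogen was taken first, and the effect of progesterone given alone was subtracted from it. All 12 arrays of the series entered this contrast, 3 in each of 4 groups, and each array came from 1 monkey. The animals carried capsules under the skin for 1 month with estrogen plus progesterone, with estrogen, with progesterone, or with placebo. Titles of the placebo animals include OVX, which was read as ovariectomized, and no such letters appear in the titles of the 3 hormone groups. The word progesterone and the letters EP stand together in the titles of the progesterone arrays, whose descriptions give P only. This group was read as progesterone without estrogen, and every value below that uses it rests on that reading. The values are intensities of an Affymetrix rhesus array. They are given as log2 intensity, so that a difference of 1 is a doubling, and a value of 0 in the interaction means that the hormones added up on the log2 scale.

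The dorsal raphe is a midbrain nucleus that supplies serotonin to much of the forebrain. Estrogen and progesterone act largely through receptors that bind DNA and switch genes on or off, and in many tissues estrogen raises the level of the progesterone receptor, so that progesterone acts on a tissue that estrogen has prepared. Progesterone in turn can lower estrogen receptor levels and oppose estrogen's actions, as it does in the lining of the uterus. An interaction can therefore take several forms. One hormone may act only in the absence of the other, both may be needed together, either may be enough, or each may undo what the other does. The block of tissue held many cell types, so fewer cells of a type and less RNA per cell cannot be told apart.

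The progesterone arrays stood apart from the other arrays before any gene was considered. On the second principal component, with 17.2% of the variance, they lay between -54.5 and -14.1, and the other 9 arrays lay between 0.50 and 20.4. The 3′ minus 5′ log2 signal of EF1A, a control transcript that reports RNA quality, was -0.37 to -0.31 on the progesterone arrays, and -0.08 to 0.65 under estrogen plus progesterone, 0.12 to 0.74 under estrogen and -0.03 to 0.07 under placebo. The actin control ran the other way, with 0.66 to 1.23 on the progesterone arrays and 0.11 to 0.90 on the rest. The part of these differences in the results was not tested, and the progesterone group cannot be left out of an interaction. On the first component, with 23.5% of the variance, the first arrays of estrogen plus progesterone, estrogen and placebo lay at -44.0, -44.9 and -51.6, away from the other 9 at -1.64 to 29.0. Of 11 listed genes of serotonin neuron identity, 7 were measured, and LMX1B, SLC6A4, HTR1A and SLC22A3 were not. Among those measured, FEV and GATA3 were well above the limit for testing on all 12 arrays. Their log2 intensities were 8.85 to 10.14 and 8.99 to 9.58. TPH2 read 4.66 and HTR1B 6.01 on their lowest arrays, which were progesterone arrays, under the limit of 6.31. On every other array TPH2 and HTR1B lay above it.

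No probe set passed the test for an interaction. Of 26383 probe sets tested with limma, 0 (0%) had an adjusted p under 0.05. The smallest adjusted value was 0.211. At an unadjusted p under 0.05 there were 1688 (6.4%), and 1319 would be there if the p-values were evenly spread. Of these, 840 were positive (3.18%) and 848 negative (3.21%). That split moved with the setting: it was 646 positive and 486 negative with median alignment in place of quantile normalization, 821 and 1023 on the linear intensity scale, and 1222 and 856 without the first progesterone array. The 95% confidence interval of an interaction reached a median of 0.69 to each side, wider than the 0.49 of a difference between 2 groups. In simulated data of the same size, 14% of probe sets with an interaction of 1 on the log2 scale were recovered, 32% at 1.5, 60% at 2 and 82% at 3. That simulation planted 50 changes at each size, with independent errors. It made 100 calls against 0 here, so its adjusted threshold was easier to pass, and these rates may be too high for the real data. Interactions of 1 to 1.5 were therefore mostly not detectable with 3 animals a group. On the linear intensity scale, which asks whether intensities and not fold changes add up, 12 probe sets passed, all negative, among them PPM1A, PPP2R2C, ANKRD11 and TM7SF3 (adjusted p 0.00368, 0.000449, 0.0209 and 0.0209). That setting also let the spread estimate follow intensity, so 2 things changed at once. The genes below are those with the lowest p-values in each direction and form. Their interactions are descriptions of these 12 animals, and only the differences between 2 groups that passed an adjusted test are called rises or falls.

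The 1688 probe sets were sorted by the shape of their 4 group means, by the best correlation with 1 of 5 fixed shapes. In 811 (48%) the progesterone group stood apart from the other 3, higher in 400 and lower in 411. In 555 (32.9%) the means came nearest to a crossed shape, with the single hormones on one side and both together and placebo on the other. This sorting does not require that the combination returned to the placebo level. In 148 (8.77%) estrogen plus progesterone stood apart, in 119 (7.05%) placebo did, and in 55 (3.26%) estrogen did. Over all probe sets tested the shapes held 35% (progesterone apart), 11.5% (crossed), 20.1% (both hormones apart), 17.4% (placebo apart) and 15.9% (estrogen apart). The crossed shape is the interaction contrast itself, so choosing probe sets by the interaction p raises its share by construction. The shares are a description, and a difference between them is not read as a result. When the 3 arrays at the far end of the first component were left out, the 5 counts were 761, 677, 249, 101 and 109. Single arrays also moved them. The progesterone shape held 1301 without the first progesterone array, the crossed shape 953 without the first estrogen array, and the placebo shape 424 without the third placebo array. The shape with both hormones apart ranged from 80 without the third placebo array to 269 without the second estrogen plus progesterone array. The estrogen shape ranged from 34 without the third progesterone array to 196 without the first estrogen array.

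A count that uses no p-value also put progesterone first. All 3 progesterone arrays lay outside the range of the other 9 in 1200 probe sets (4.55%), 653 above (2.48%) and 547 below (2.07%). The number was 282 (1.07%) for estrogen plus progesterone, with 120 above (0.455%) and 162 below (0.614%). It was 146 (0.553%) for estrogen, with 72 above (0.273%) and 74 below (0.28%). It was 141 (0.534%) for placebo, with 70 above (0.265%) and 71 below (0.269%). The 6 arrays with 1 hormone lay apart from the 6 with both or neither in 73 probe sets (0.277%). Among the 653 probe sets above the others under progesterone, the median log2 difference between progesterone and placebo was 0.68, and between estrogen plus progesterone and estrogen it was -0.004. Among the 547 below, the same medians were -0.48 and 0.03. The choice of probe sets fixes the sign of the first median in each set but not of the second. The gap between them is therefore no evidence that estrogen alters the effect of progesterone. The bars of probe sets per group show how far progesterone exceeded the other 3 groups.

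**Figure D1:**
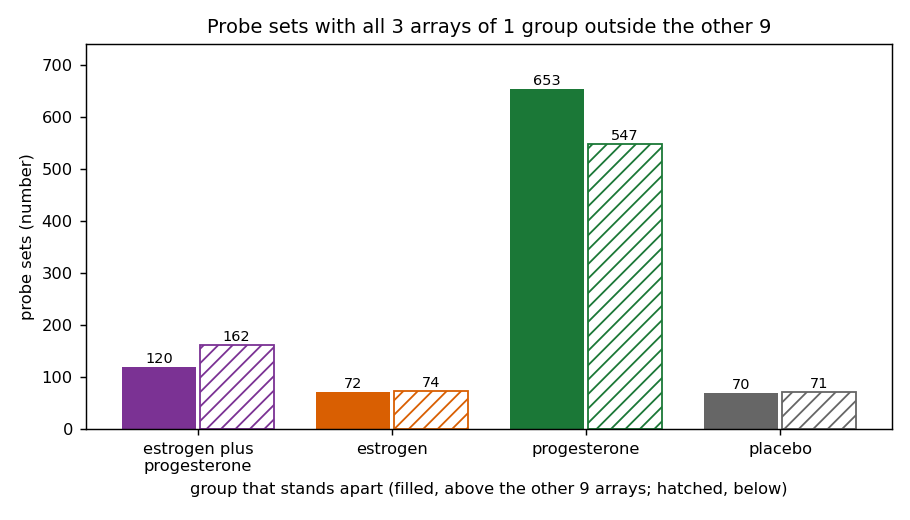
Number of the 26383 tested probe sets (vertical axis) in which all 3 arrays of a group lay above or below the other 9 arrays, for each of the 4 groups. Progesterone had 653 above and 547 below, and no other group passed 162 in either direction.

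The measured difference made by progesterone without estrogen bore almost no relation to that with estrogen. The pairs of groups share no array. Across 26383 probe sets the 2 differences correlated by a Pearson r of 0.02 and a Spearman rho of -0.007, as a description over probe sets that share the same libraries. The SD of the difference was 0.26 with estrogen (estrogen plus progesterone minus estrogen) and 0.38 without it (progesterone minus placebo). The median SE of a difference between 2 groups was 0.22. Errors of that size pull r towards 0, so a low r cannot show that the underlying effects are unrelated. Of 600 probe sets with progesterone minus placebo at least 1 in size on the log2 scale, 341 (56.8%) had the same sign with estrogen present. Over the 600, the median difference with estrogen was 0.05 in the direction seen without it. Estrogen's effect looked alike from the other side: its r without and with progesterone was 0.01. Of 169 probe sets with estrogen minus placebo at least 1 in size, 79 (46.7%) had the same sign under progesterone.

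**Figure D2:**
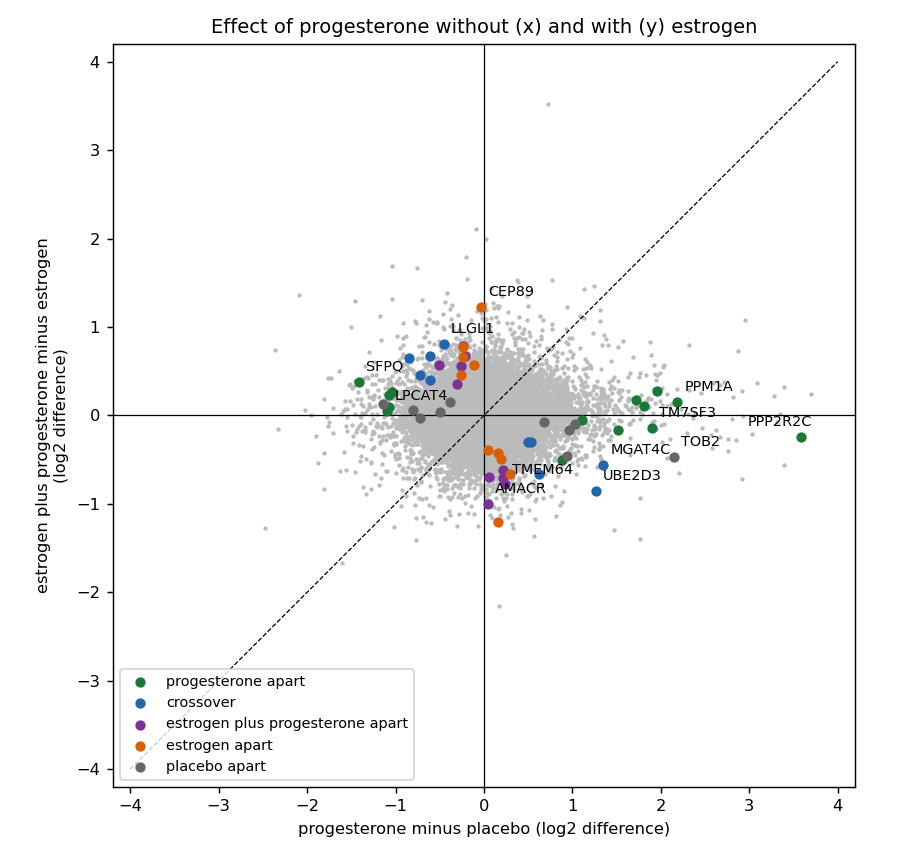
Progesterone minus placebo (horizontal axis, log2) against estrogen plus progesterone minus estrogen (vertical axis, log2) for 26383 probe sets, with the dashed line marking equal effects. The cloud is wider along the horizontal axis (SD 0.38) than along the vertical one (SD 0.26), and the labelled genes lie far from the line.

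In the commonest shape progesterone alone stood apart, with estrogen plus progesterone back among the other groups. Against placebo, progesterone alone gave 31 rises (0.117%) and 4 falls (0.0152%) past the adjusted threshold, 35 of 26383 in all (0.133%), with 9.87% at an unadjusted p under 0.05. Adding progesterone to estrogen gave 0, with 786 (2.98%) at an unadjusted p under 0.05 in limma. With the replicate number as a block, fitted on these 2 groups alone, it again gave 0 past the threshold, with 1551 unadjusted, against 778 in the same 6 arrays without the block. Estrogen plus progesterone against progesterone gave 4 rises (0.0152%) and 18 falls (0.0682%), 22 in all (0.0834%), with 11.4% unadjusted. Estrogen against placebo gave 0, with 699 (2.65%) unadjusted. These counts moved with single arrays. Progesterone against placebo gave 5 without the second placebo array and 55 without the third, and estrogen plus progesterone against progesterone gave 0 without the second progesterone array and 41 without the first placebo array. The first pair of contrasts shares no array, whereas the rises against placebo and the falls with estrogen share the progesterone arrays, so a high progesterone array enters both.

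TM7SF3, a gene for a multi-pass membrane protein, had the lowest p of all probe sets. Its log2 intensity was 6.24, 6.79 and 6.36 under estrogen plus progesterone, 6.57, 6.55 and 6.68 under estrogen, 8.63, 8.25 and 8.26 under progesterone, and 6.24, 6.48 and 6.72 under placebo. The 3 progesterone arrays were far above the other 9, and those 9 overlapped one another. TM7SF3 rose by 1.90 (3.73-fold) under progesterone against placebo (limma adjusted p = 0.00735) and fell by 1.92 under estrogen plus progesterone against progesterone (adjusted p = 0.0103). With estrogen present, progesterone's difference was -0.14, with a 95% interval from -0.56 to 0.28. The interaction was -2.04 ± 0.27 (SE, n = 3 a group), interval -2.63 to -1.45. The rise held in all 12 fits that left out 1 array, and the fall was lost without the second progesterone array.

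PPM1A, a phosphatase that switches off stress kinase and SMAD signalling, had the same form. It read 6.67, 6.89 and 7.19 under estrogen plus progesterone, 6.38, 7.22 and 6.69 under estrogen, 8.99, 8.95 and 9.13 under progesterone, and 6.44, 7.13 and 6.96 under placebo. Again the progesterone arrays were alone at the top. PPM1A rose by 2.18 (4.54-fold) under progesterone (adjusted p = 0.00735) and fell by 2.11 under estrogen plus progesterone against progesterone (adjusted p = 0.0113), while with estrogen present progesterone's difference was 0.15 (interval -0.38 to 0.68). Its interaction was -2.03 ± 0.34. The fall lost its call without the first or the second estrogen plus progesterone array, and without the second or the third progesterone array.

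PPP2R2C, which encodes a brain subunit that directs the phosphatase PP2A to its targets, had a wider gap. Estrogen plus progesterone gave 7.70, 6.89 and 7.53, estrogen 7.71, 7.72 and 7.41, progesterone 10.44, 10.48 and 10.13, and placebo 5.28, 7.29 and 7.72. The progesterone arrays exceeded all others, and the first placebo array was well below the rest. PPP2R2C rose by 3.59 under progesterone (adjusted p = 0.018), and the rise was 2.84 without the first placebo array. It lost its call without the second placebo array or any of the 3 progesterone arrays. The interaction was -3.83 ± 0.69, and with estrogen present the difference made by progesterone was -0.24 (interval -1.31 to 0.83). The difference between estrogen plus progesterone and progesterone, -2.98, missed the threshold (adjusted p = 0.0581).

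Other genes also rose under progesterone alone, and their differences between estrogen plus progesterone and estrogen lay between -0.16 and 0.27. ANKRD11, a chromatin regulator that binds histone deacetylases, rose by 1.96 (adjusted p = 0.00735) and fell by 1.55 under estrogen plus progesterone against progesterone (adjusted p = 0.0182), with an interaction of -1.69 ± 0.29. USP16, an enzyme that takes ubiquitin off histones, rose by 1.52 (adjusted p = 0.018) and fell by 1.59 (adjusted p = 0.0182) in the same contrasts. WASHC4, part of the complex that builds actin on endosomes, rose by 1.72 and fell by 1.53 (adjusted p 0.0166 and 0.0313). MYO6, a motor that walks along actin, rose by 1.80 and fell by 1.60 (adjusted p 0.018 and 0.0462). EXTL2, a sugar transferase linked to heparan sulfate, rose by 1.11 and fell by 1.22 (adjusted p 0.0239 and 0.0182). In each of these 5 genes the progesterone arrays were above the other 9, and the interactions of the last 4 were -1.68, -1.54, -1.70 and -1.17. Only the ANKRD11 rise kept its call in all 12 fits with 1 array left out. The other 9 calls of these 5 genes held in 2 to 9 of those fits, fewest for the fall of MYO6, and each was lost without the second progesterone array, among others.

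Some genes went the other way, with progesterone alone at the bottom. LPCAT4, an enzyme that rebuilds membrane phospholipids, read 8.30, 7.84 and 8.24 under estrogen plus progesterone, 8.21, 8.14 and 7.88 under estrogen, 7.09, 6.91 and 6.81 under progesterone, and 8.01, 7.97 and 8.10 under placebo. Every progesterone array was below every other array. LPCAT4 fell by 1.09 under progesterone against placebo (adjusted p = 0.0307) and rose by 1.19 under estrogen plus progesterone against progesterone (adjusted p = 0.0218), held in 4 and 5 of 12 fits. ELFN2, a synaptic protein that binds glutamate receptors, rose by 1.59 under estrogen plus progesterone against progesterone (adjusted p = 0.0182, 7 of 12 fits), and EXOC3L1, related to the vesicle-tethering exocyst, rose by 1.09 (adjusted p = 0.0462, 2 of 12 fits). Against placebo, progesterone's differences in these 2 genes were -1.08 and -0.84 and missed the threshold (adjusted p 0.0914 and 0.0982). All 4 calls were lost without the second progesterone array, among others. YPEL5 and the microtubule kinase DCLK2 had interactions of 1.17 and 1.30, with progesterone minus placebo at -1.08 and -1.04 (adjusted p 0.0512 and 0.0982).

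SFPQ, which encodes a nuclear protein that binds RNA during splicing, had the lowest p among positive interactions. It was sorted with the genes in which progesterone stood apart, but estrogen alone was low too. It read 8.59, 9.26 and 8.36 under estrogen plus progesterone, 8.41, 8.26 and 8.40 under estrogen, 7.79, 7.57 and 7.59 under progesterone, and 8.98, 9.11 and 9.10 under placebo. Both hormones alone were below placebo with no overlap, progesterone more so, and the combination spread from the estrogen level to just above the placebo level. SFPQ fell by 1.41 under progesterone (adjusted p = 0.0253), a call lost without any 1 of the progesterone or placebo arrays. Estrogen minus placebo was -0.71 (interval -1.16 to -0.26), which did not pass. Estrogen added to progesterone gave 1.09 (adjusted p = 0.0939), and the interaction was 1.80 ± 0.29.

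**Figure D3:**
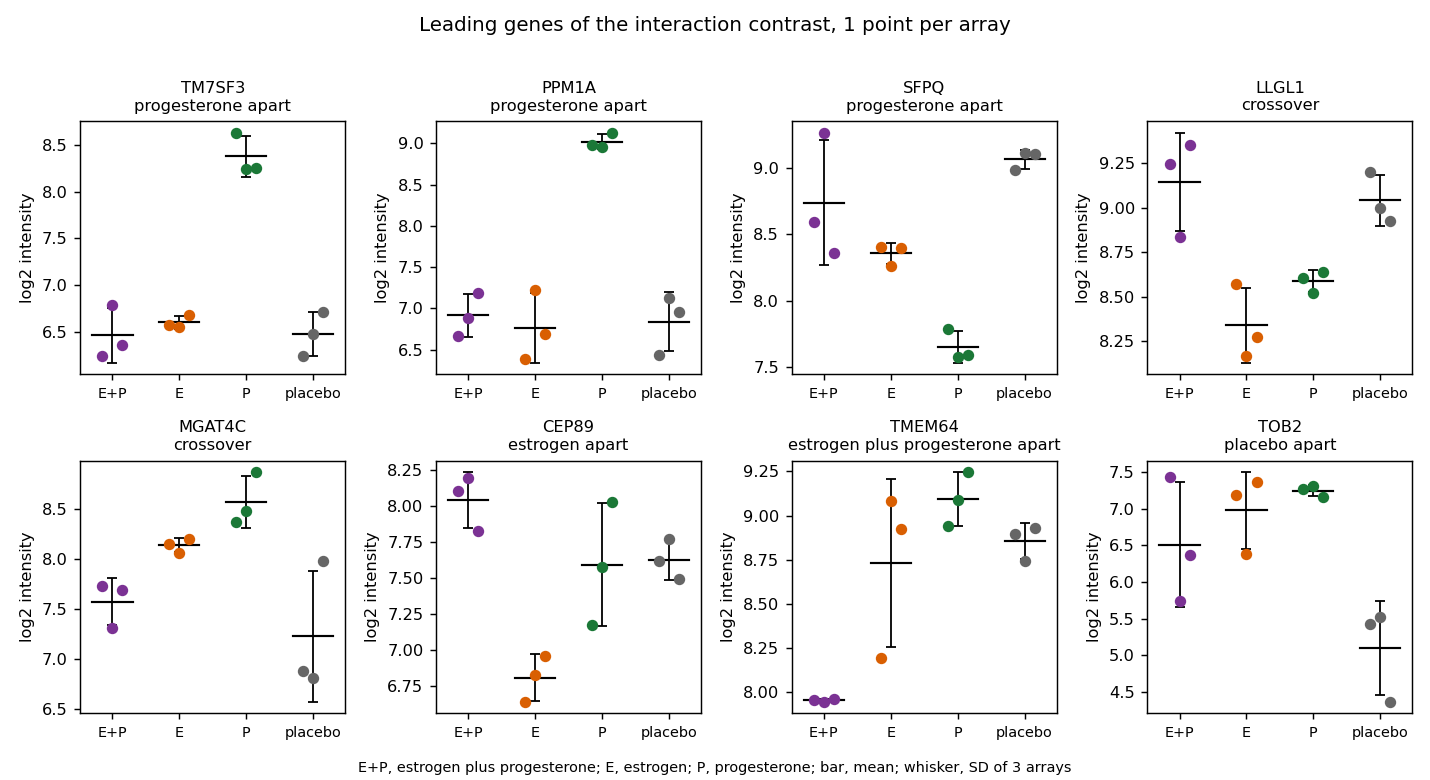
Log2 intensity (vertical axis) of 8 genes on each array (points) in the 4 groups, with the mean as a bar and the SD as whiskers. TM7SF3 and PPM1A are high under progesterone alone, LLGL1 is low and MGAT4C high under either hormone alone, CEP89 is low under estrogen alone, TMEM64 is low under both hormones, and TOB2 is low under placebo.

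The second form was a crossing, in which the means of the single hormones lay towards one side and those of the pair and placebo towards the other. LLGL1, a scaffold protein of cell polarity, read 9.25, 8.83 and 9.36 under estrogen plus progesterone, 8.57, 8.17 and 8.27 under estrogen, 8.61, 8.52 and 8.64 under progesterone, and 9.20, 9.0 and 8.92 under placebo. The 6 arrays with 1 hormone were all below the 6 with both or neither. Progesterone made a difference of 0.81 with estrogen (interval 0.43 to 1.19) and of -0.46 without it. The interaction was 1.26 ± 0.25, and estrogen plus progesterone differed from placebo by 0.10 (interval -0.28 to 0.49). The brightest probe set of LLGL1 had an interaction of 0.10.

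MGAT4C, of a family of enzymes that branch sugar chains on proteins, crossed upwards. It read 7.73, 7.30 and 7.68 under estrogen plus progesterone, 8.15, 8.06 and 8.20 under estrogen, 8.37, 8.48 and 8.87 under progesterone, and 6.88, 6.81 and 7.98 under placebo. Both hormones alone were above the other groups, and the third placebo array lay above all 3 arrays of the combination. The interaction was -1.91 ± 0.39. Without that placebo array it was -2.28 with an adjusted p of 0.0460, 1 of 4 probe sets past the threshold in that fit.

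OGT, which attaches single N-acetylglucosamine sugars to nuclear and cytoplasmic proteins, read 8.54, 8.64 and 8.57 under estrogen plus progesterone, 8.11, 8.42 and 7.86 under estrogen, 8.08, 7.94 and 7.49 under progesterone, and 8.44, 8.43 and 8.81 under placebo. All 6 single-hormone arrays were below the other 6. CSNK1E, the casein kinase that marks PER proteins of the circadian clock, had the same layout at 6.62, 6.99 and 6.88, then 6.01, 6.26 and 6.22, then 5.69, 6.48 and 6.25 against 6.71, 6.74 and 6.81 under placebo, in the same order of groups. Estrogen plus progesterone differed from placebo by 0.02 (interval -0.41 to 0.46) for OGT and by 0.08 (interval -0.36 to 0.51) for CSNK1E, and the interactions were 1.18 ± 0.28 and 1.28 ± 0.28. A second, brighter probe set of CSNK1E had -0.37. UBE2D3, which hands ubiquitin to target proteins, had an interaction of -2.11 ± 0.49 with overlapping groups. NEK7, a kinase of the mitotic spindle and of the inflammasome, had -0.79 ± 0.19.

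PITPNM2, which moves phosphatidylinositol between membranes, read 7.90, 8.10 and 8.22 under estrogen plus progesterone, 7.79, 7.56 and 7.67 under estrogen, 7.71, 7.34 and 7.25 under progesterone, and 7.96, 8.02 and 8.15 under placebo, again without overlap between 1 hormone and both or neither. Its interaction was 1.01 ± 0.23. The single-hormone arrays were apart in the same way, but higher, for ANKRD49 (-1.28 ± 0.28), for MPHOSPH10 of ribosomal RNA processing (-0.83 ± 0.20), for SUZ12 of the polycomb complex that silences genes (-0.90 ± 0.26), for the potassium channel KCNJ2 (-0.67 ± 0.20) and for NDUFB6 of respiratory complex I (-0.47 ± 0.19). The only other probe set of KCNJ2 had the opposite sign, at 0.57. CCDC181 (1.49 ± 0.30) and CA8, a carbonic anhydrase relative abundant in Purkinje cells (-0.94 ± 0.27), crossed with some overlap. In these genes the combination differed from placebo by 0.35 and 0.32. The 2 other probe sets of CCDC181 had the opposite sign, at -0.08 and -1.26. SF3B3, a splicing factor that recognises the branch point, had 1.5 ± 0.41 with overlap between groups.

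A full reversal was also counted directly. Progesterone moved every array one way without estrogen and every array the other way with it in 183 probe sets (0.694%). Of these, 88 (0.334%) were above placebo alone and below estrogen in the combination, and 95 (0.36%) were the opposite. In 152 probe sets (0.576%) it moved every array the same way in both settings. Estrogen reversed in this sense in 153 (0.58%), and kept its direction in 191 (0.724%). The share to be met without any effect was not computed, so these counts are not read as an excess of reversals.

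The third form needed both hormones. TMEM64, an endoplasmic reticulum membrane protein, read 7.95, 7.94 and 7.96 under estrogen plus progesterone, 8.19, 9.08 and 8.92 under estrogen, 8.94, 9.09 and 9.25 under progesterone, and 8.90, 8.74 and 8.93 under placebo. The combination was below all 9 other arrays and its replicates were nearly equal. Estrogen plus progesterone minus progesterone was -1.14 (interval -1.60 to -0.68, adjusted p = 0.0939). Against placebo the difference was -0.12 for estrogen alone (interval -0.58 to 0.33) and 0.24 for progesterone alone (interval -0.22 to 0.69). The interaction was -1.02 ± 0.30. The 2 other probe sets of TMEM64 had -0.52 and 0.86.

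AMACR, a peroxisomal enzyme of branched fatty acid and bile acid metabolism, read 7.66, 8.12 and 7.77 under estrogen plus progesterone, 8.58, 9.20 and 8.78 under estrogen, 8.57, 8.49 and 8.81 under progesterone, and 8.93, 8.20 and 8.61 under placebo. The combination lay below the other 9 arrays, by a narrow gap to the second placebo array. Adding progesterone to estrogen gave -1.0 (interval -1.49 to -0.51), and progesterone alone gave 0.04 (interval -0.45 to 0.54). Neither contrast passed the adjusted test, and the interaction was -1.05 ± 0.32.

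GULP1, which acts in the uptake of dying cells, read 6.50, 6.69 and 6.57 under estrogen plus progesterone, 6.88, 7.30 and 7.44 under estrogen, 7.50, 7.33 and 7.48 under progesterone, and 7.12, 7.41 and 7.12 under placebo. DAB2, an adaptor of clathrin-mediated uptake, read 7.56, 7.43 and 7.62, then 8.25, 8.17 and 8.27, then 8.20, 7.95 and 7.73 against 7.93, 8.03 and 7.76 under placebo, in the same order of groups. In both genes the combination lay below every other array, and in DAB2 estrogen alone lay above placebo. The interactions were -0.84 ± 0.24 and -0.75 ± 0.22. The 2 other probe sets of GULP1 had -0.25 and 0.54, and the 3 others of DAB2 were all negative. SF3B6, a partner of SF3B3 in the same splicing complex, had -0.92 ± 0.27, and the histone deacetylase HDAC2 had -0.54 ± 0.21.

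In other genes the combination was highest on average. IFT27, which carries cargo in cilia, read 8.28, 9.01 and 8.42 under estrogen plus progesterone, 7.77, 7.97 and 7.98 under estrogen, 7.67, 7.94 and 7.85 under progesterone, and 7.89, 8.10 and 8.12 under placebo. All 3 arrays of the combination were above the other 9, and the interaction was 0.88 ± 0.27. IL17RC, a receptor subunit for interleukin 17 cytokines, was above the other 9 arrays in the combination (7.72 to 7.98) and below them under progesterone alone (7.23 to 7.26), with 0.66 ± 0.19. The only other probe set of IL17RC had the opposite sign, at -0.65. HP1BP3, a heterochromatin protein, the potassium chloride cotransporter SLC12A4 and the tubulin-modifying enzyme TTLL3 had 1.07 ± 0.33, 0.82 ± 0.26 and 1.02 ± 0.35, each with overlap between groups.

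In the fourth form estrogen alone stood apart, and with progesterone added the mean lay nearer to the other groups. CEP89, a centriole protein needed for cilia, read 8.10, 8.19 and 7.82 under estrogen plus progesterone, 6.64, 6.83 and 6.96 under estrogen, 7.18, 7.58 and 8.02 under progesterone, and 7.62, 7.77 and 7.50 under placebo. The 3 estrogen arrays were below all others. Progesterone made a difference of 1.23 beside estrogen (interval 0.77 to 1.69) and of -0.03 alone (interval -0.49 to 0.42), and estrogen alone differed from placebo by -0.82 (interval -1.28 to -0.36). None of the 3 passed the adjusted test. The interaction was 1.26 ± 0.30.

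The other genes of this form had smaller gaps. PATE4 was at 6.47 to 6.58 under estrogen and at 6.81 to 7.36 on the other 9 arrays (interaction 0.72 ± 0.20). Its placebo arrays (7.13 to 7.36) lay above every other array, and the combination (6.81 to 7.10) did not reach them. TAPBP, which loads peptides onto MHC class I molecules, read 7.40 to 7.43 under estrogen plus progesterone, 6.72 to 6.92 under estrogen, 6.94 to 7.25 under progesterone and 7.13 to 7.37 under placebo, so that estrogen alone was below every other array and the combination above every other array (0.68 ± 0.20). APBA2, a neuronal adaptor that binds the amyloid precursor protein, PLXNA3, a semaphorin receptor, and NPC1, which exports cholesterol from lysosomes, were likewise lowest on average under estrogen alone, with 0.90 ± 0.28, 1.01 ± 0.32 and 0.64 ± 0.23. FGFBP3, which binds fibroblast growth factors, was highest there on average (-1.36 ± 0.50). So were FAM217A (-0.95 ± 0.33), the chromatin remodeller CHD8 (-0.58 ± 0.24), the deubiquitinase OTUD3 (-0.68 ± 0.29) and FAM217B (-0.44 ± 0.17), and among these 5 only FAM217B had 3 estrogen arrays outside the other 9.

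In the fifth form placebo stood apart, and in some of these genes either hormone gave about the same level as both. TOB2, an antiproliferative protein that recruits the machinery of mRNA decay, read 7.43, 5.74 and 6.37 under estrogen plus progesterone, 7.19, 6.38 and 7.36 under estrogen, 7.27, 7.31 and 7.16 under progesterone, and 5.42, 5.52 and 4.36 under placebo. Placebo was below all 9 hormone arrays, and the combination was the most scattered group. Progesterone minus placebo was 2.14 (adjusted p = 0.0921), whereas progesterone beside estrogen gave -0.47 (interval -1.39 to 0.46). The interaction was -2.61 ± 0.60. The 2 other probe sets of TOB2 had -0.61 and 0.23.

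PSMC4, an ATPase of the proteasome's regulatory particle, read 9.36, 9.0 and 9.46 under estrogen plus progesterone, 9.37, 9.22 and 9.44 under estrogen, 9.45, 9.58 and 9.27 under progesterone, and 8.58, 8.79 and 8.90 under placebo. The 3 hormone groups overlapped fully and placebo lay beneath them. The combination differed from estrogen by -0.07 (interval -0.44 to 0.29) and from progesterone by -0.16 (interval -0.53 to 0.20), and the interaction was -0.75 ± 0.24. Placebo was also below the other 9 arrays for TMEM171 (-1.39 ± 0.33), for TIPRL, which binds the catalytic subunits of PP2A-type phosphatases (-1.13 ± 0.30), and for CYB5B, a cytochrome of the outer mitochondrial membrane (-1.13 ± 0.37). In TMEM171 the combination (6.29 to 6.75) lay below all progesterone arrays (6.77 to 7.18). The same held in TIPRL, with 6.40 to 6.48 in the combination and 6.85 to 7.14 under progesterone.

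Placebo was above the other 9 arrays for the glycolytic enzyme GPI (0.54 ± 0.21) and for TMCO6 (0.54 ± 0.21). ELAVL1, which stabilises mRNAs, read 8.68, 8.63 and 8.56 under estrogen plus progesterone, 8.49, 8.64 and 8.34 under estrogen, 7.89, 8.20 and 7.97 under progesterone, and 9.64, 9.45 and 8.40 under placebo. There the third placebo array lay among the hormone groups, and progesterone was lowest (1.28 ± 0.38). BHMT, which returns homocysteine to methionine, and SLC27A5, which activates bile acids in liver, had 0.86 ± 0.34 and 0.69 ± 0.25 with overlap.

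**Figure D4:**
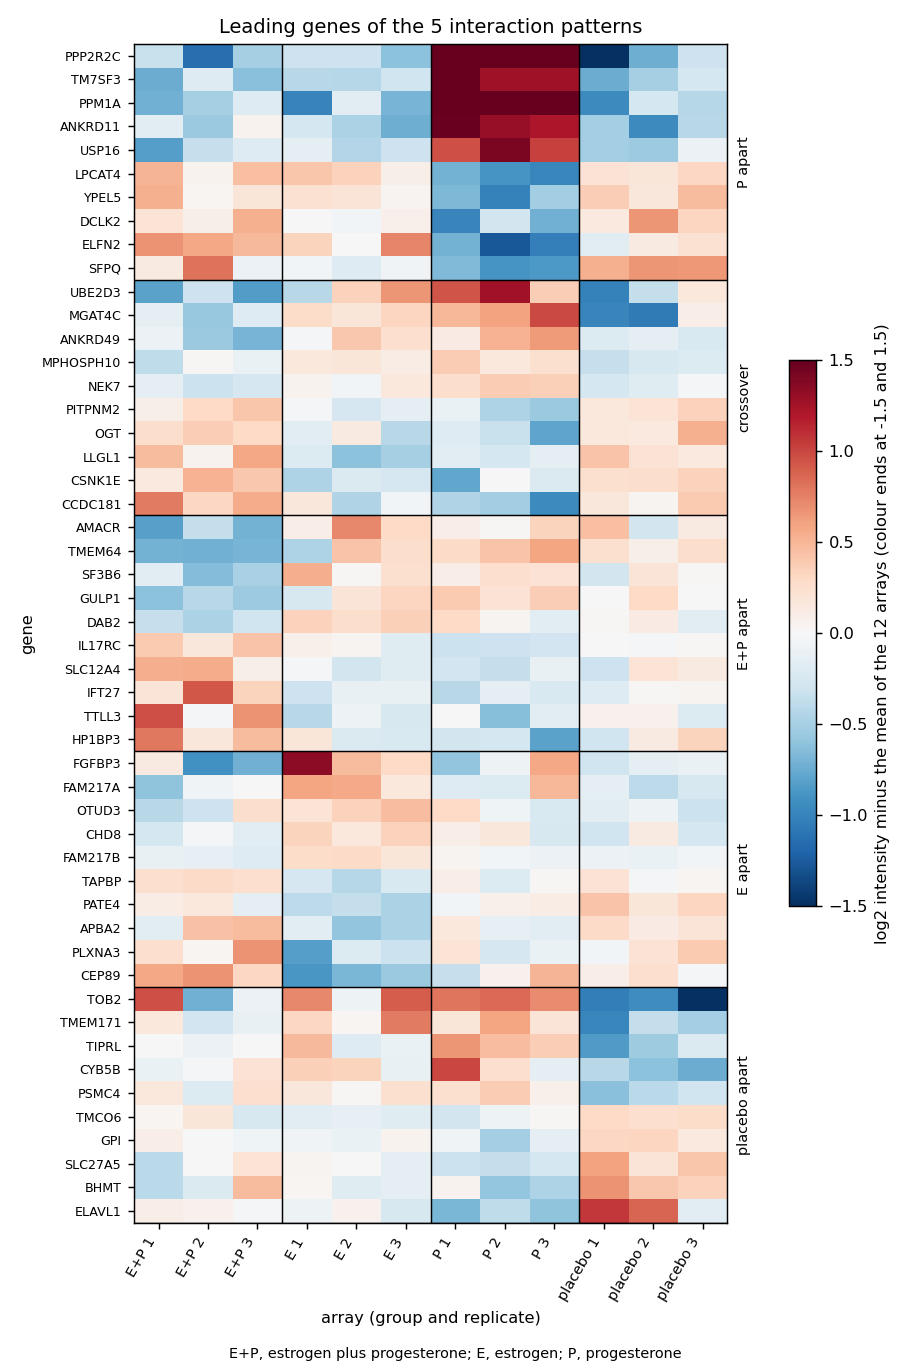
Log2 intensity of the 50 genes named for the 5 forms (rows) on the 12 arrays (columns), as the difference from each gene's mean over all arrays, with colour ends at -1.5 and 1.5. The genes were chosen by these values, and the blocks show which arrays set each form.

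Most of these values rest on 1 probe set of a gene, and other probe sets of the same gene often showed less. Of the 20 genes with the lowest p in each direction, 17 had other tested probe sets, 30 in all. Of those, 24 had the same sign and 8 had the same sign with an unadjusted p under 0.05. The median size was 1.44 for the chosen probe sets and 0.29, in their direction, for the others, which ranged from -1.26 to 2.16. The chosen ones were taken for their low p, so they are larger by choice. In 15 of the 20 the chosen probe set was not the brightest. The brightest one gave -0.04 for TM7SF3, -0.46 for PPM1A, -0.52 for PPP2R2C, 0.21 for SFPQ, -0.09 for USP16, -0.36 for WASHC4, -0.03 for MYO6 and -0.15 for EXTL2. It gave 0.10 for LLGL1 (against 1.26), 0.38 for ELFN2 (against 1.30) and 0.96 for CEP89 (against 1.26). It had the opposite sign at 0.52 for ANKRD11, -0.08 for CCDC181, -0.24 for YPEL5 and -0.37 for CSNK1E. The other probe set of CCDC181 had -1.26 (unadjusted p = 0.0306 in limma), against 1.49 for the chosen one. A further probe set of PPP2R2C had 0.31. A further probe set, not the brightest, came closer in PPP2R2C (-2.16), WASHC4 (-1.80), USP16 (-1.47) and PITPNM2 (0.89). The WASHC4 one had means of 5.86 under estrogen plus progesterone, 5.71 under estrogen and 6.16 under placebo, all under the limit of 6.31. Its mean under progesterone was 8.10. It was tested only because of that group, so it is no independent support. Genes outside these 20 were not counted in this way, and some had other probe sets of the opposite sign. Which transcripts each probe set detects was not determined here.

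**Figure D5:**
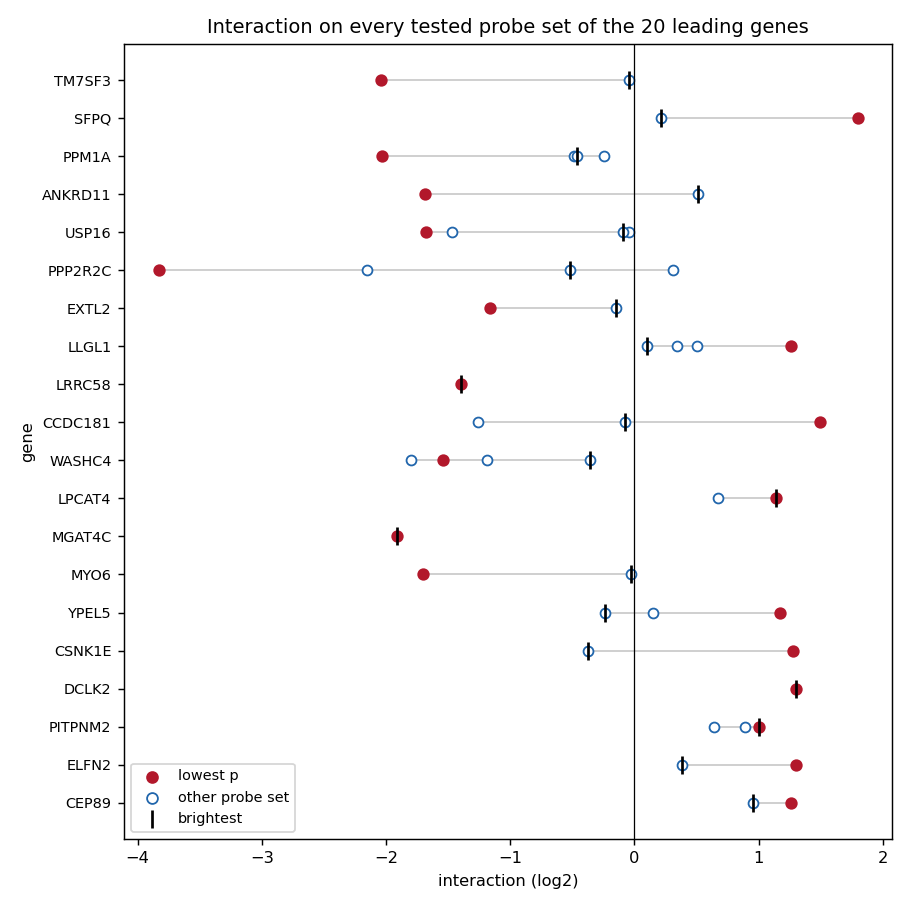
Interaction (horizontal axis, log2) of every tested probe set of the 20 genes with the lowest p in each direction, with the probe set of lowest p and the brightest one marked. The chosen probe sets had a median size of 1.44 and the others of 0.29 in the same direction.

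Serotonin genes showed no interaction that passed. TPH2, which carries out the first step of serotonin synthesis in neurons, read 8.85, 8.51 and 7.53 under estrogen plus progesterone, 7.22, 7.14 and 7.39 under estrogen, 7.74, 6.99 and 4.66 under progesterone, and 6.47, 7.44 and 7.80 under placebo. The combination was above all 3 estrogen arrays and overlapped the other 2 groups, and the third progesterone array was far below the rest. The interaction was 1.82 ± 0.92 (adjusted p = 0.785), 0.93 without that array and 2.45 without the first progesterone array. HTR1B, the terminal autoreceptor, was the 1 gene of 7 measured identity genes with an unadjusted p under 0.05, at 0.91 ± 0.36.

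The remaining identity genes had smaller interactions. FEV, the transcription factor that sets up serotonin neurons, had 0.35 ± 0.37, GATA3 0.25 ± 0.22, GATA2 0.32 ± 0.34 and the vesicle transporter SLC18A2 0.06 ± 0.32. Of the 7, 6 were positive, with a median of 0.32 (0.14 without the second placebo array, 0.42 without the second progesterone array). Over all 9305 named genes, taken by their brightest probe set, 5113 (54.9%) were positive, 552 (5.93%) had an unadjusted p under 0.05, and the median was 0.04. The summed intensity of the 7 genes was 2768 to 3496 under estrogen plus progesterone, 2988 to 4032 under estrogen, 2175 to 2714 under progesterone and 2833 to 3938 under placebo, lowest under progesterone. Among 8 genes of serotonin synthesis, storage and breakdown the median was 0.05, and MAOA, which degrades serotonin, had -0.22 ± 0.29.

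Of the hormone receptors themselves, ESR2 (estrogen receptor beta) had an interaction of 0.03 ± 0.44 and PGRMC1, a membrane progesterone-binding protein, of 0.01 ± 0.19. ESR1, FKBP5 and PGR fell below the limit for testing (mean log2 intensity 4.97, 4.21 and 2.82), so whether estrogen altered the progesterone receptor gene here could not be read. Of 7 measured steroid receptor genes 6 were positive, with a median of 0.16, and 0 had an unadjusted p under 0.05 in limma. Of 17 coregulators and chaperones 8 were positive and 1 had an unadjusted p under 0.05. That was NCOA3, a coactivator of both receptors, which read 7.56, 7.72 and 7.85 under estrogen plus progesterone, 7.69, 7.77 and 7.72 under estrogen, 8.56, 8.30 and 8.27 under progesterone, and 6.88, 7.98 and 7.95 under placebo. Its progesterone arrays were above the other 9, and its interaction of -0.79 ± 0.36 was -0.43 without the first placebo array. Of 15 estrogen-responsive genes, IGFBP4 (0.73 ± 0.29) and BDNF (-0.92 ± 0.37) had an unadjusted p under 0.05, in opposite directions. Of 15 genes known to answer to progestins or corticosteroids none did, and their median was -0.03.

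Progesterone's metabolite allopregnanolone acts through the GABA-A receptor. Of 15 listed subunit genes 6 were measured, and all 6 had negative interactions, against 4192 of 9305 named genes. With 1 array left out, at most 1 of them was positive. The median was -0.47, and it ranged from -0.64 to -0.31 with 1 array left out, smallest without the first estrogen array. Only GABRA2 had an unadjusted p under 0.05. It read 7.90, 7.18 and 7.71 under estrogen plus progesterone, 7.91, 7.41 and 7.89 under estrogen, 9.28, 8.45 and 8.43 under progesterone, and 7.97, 7.88 and 7.93 under placebo, so the progesterone arrays were above the others, and its interaction was -0.94 ± 0.36. GABRA3 had -1.53 ± 0.86 (-0.70 without the first placebo array) and GABRA4 -0.64 ± 0.39 (-0.41 without the first estrogen array). The mean over the 6 genes was 8.07, 8.07 and 8.04 under estrogen plus progesterone, 8.43, 8.42 and 8.28 under estrogen, 8.67, 8.14 and 8.32 under progesterone, and 7.76, 8.10 and 8.44 under placebo. The combination was below both single hormones, and placebo overlapped all 3 hormone groups.

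Markers of other cell types were counted in the same way. Of 13 microglia and macrophage genes 2 were positive, with a median of -0.39 (-0.16 without the third placebo array) and 0 with an unadjusted p under 0.05 in limma. Their summed intensity was 4806 to 5726 under estrogen plus progesterone, 5469 to 5994 under estrogen, 5427 to 6510 under progesterone and 5134 to 7174 under placebo. Of 5 ependyma and choroid plexus genes all were positive, with a median of 0.39 (0.10 without the second progesterone array), and 1, SPAG6 of the ciliary axoneme, had an unadjusted p under 0.05 at 0.88 ± 0.34. Their sum was 709 to 974.8 under estrogen plus progesterone, 717 to 806 under estrogen, 510 to 735 under progesterone and 752 to 802 under placebo. Of 6 cerebellar genes 1 was positive, with a median of -0.36 (-0.002 without the second estrogen array) and sums of 1702 to 2797, 1706 to 3586, 2125 to 2317 and 1790 to 2069 in the same order of groups. Progesterone lay below placebo in the ependymal sum and above it in the cerebellar sum, with no overlap, and the microglial sums overlapped. Their part in the interactions of single genes was not tested.

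The families of the leading genes had medians near that of all named genes. Of 15 PP2A subunits 8 were positive, with a median of 0.01, and of 9 PPM phosphatases 4 were positive, with a median of -0.14 (-0.03 without the first estrogen array). Of 10 WASH and retromer genes 6 were positive, with a median of 0.13 (-0.003 without the second estrogen array). In each of these 3 groups 0 brightest probe sets had an unadjusted p under 0.05 in limma. Splicing factors were even, with 17 of 34 positive and a median of -0.01. RBM25 (-3.63 ± 0.96) and SRRM2 (-2.21 ± 0.60), which were above the other 9 arrays under progesterone alone, stood against SF3B3 (1.5). Among 39 chromatin regulators the median was -0.02, and SUZ12, HDAC2 and CHD8 were negative while the brightest probe set of ANKRD11 was positive.

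In several further groups 1 or 2 members had an unadjusted p under 0.05, among them 4.55% of the proteasome genes and 7.14% of the synaptic vesicle genes, shares near the 5.93% of all named genes. Of 22 proteasome subunits 7 were positive, with a median of -0.12 (-0.03 without the first estrogen plus progesterone array), and only PSMC4 was at that level. Of 14 synaptic vesicle genes 10 were positive, and CPLX2, which clamps and promotes vesicle fusion, had 0.50 ± 0.20. It read 10.47, 10.80 and 10.60 under estrogen plus progesterone, 10.84, 10.84 and 10.71 under estrogen, 9.79, 9.90 and 9.93 under progesterone, and 10.64, 10.62 and 10.37 under placebo, with progesterone below all others. Of 20 genes of phospholipid remodelling 11 were positive, with LPCAT4 and AGPAT1 (0.51 ± 0.22) at that level. The dopamine transporter SLC6A3 had 1.55 ± 0.66, which was 0.92 without the first placebo array. Of 6 genes of the CRH and urocortin system, the stress peptides that reach the raphe, 5 were positive, with a median of 0.30 and 0 at an unadjusted p under 0.05 in limma.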

How the data were processed

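Each deposited number is an unlogged intensity of 1 probe set on 1 array. The authors had scaled each array so that the mean after trimming 2% at each end was 200.0, as read from the values. The software was not given in the sources used here. Of 52865 probe sets, 99 controls were removed. In the rest, values under the 5th percentile were raised to it (intensity 4.99), then log2 transformed and quantile normalized. The 26383 probe sets with a mean at or above the median of means (log2 6.31) were tested. Arrays give no depth, so the number of arrays limits the precision.

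limma 3.58.1 in R 4.3.3 was fitted with 1 mean per group (8 residual and 3.54 prior degrees of freedom). The interaction was (estrogen plus progesterone minus estrogen) minus (progesterone minus placebo), two-sided, with Benjamini-Hochberg adjustment over all probe sets tested and a threshold of 0.05. An SE is that of the fit. With 3 animals against 3, p-values measure the spread between these animals only. As a check of pairing, all 3 same-numbered correlations of deviations from group means were over 0.1 between estrogen plus progesterone and estrogen (0.14 to 0.51) and between estrogen plus progesterone and placebo (0.10 to 0.27), but not in the other 4 pairs of groups. Counts with the number as a block were therefore added for those 2 comparisons, and a block in the interaction was run only as an alternative. The differences, intervals and p-values of single genes were fitted without a block. Of 36 pairs of arrays with other numbers, 12 were over 0.1 as well. The forms were assigned by the largest Pearson correlation of the 4 group means with 5 templates. The same fit was tested on simulated data with 50 probe sets changed at each size, where 6 of 100 calls were false. Plots used Python 3.11.15 and matplotlib 3.10.9.

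Names came from a probe table. Of the probe sets tested, 15938 had 1 symbol, 224 several and 10221 none, and 918 had locus numbers, so 15020 were named. NCOA1 was not named by any probe set. The rule named 1 probe set per gene: the 10 lowest interaction p in each direction, the 5 lowest in each direction of each form, up to 3 members of each of 39 gene lists on their brightest probe set, and 16 genes in any case (TPH2, SLC18A2, MAOA, FEV, GATA2, GATA3, ESR1, ESR2, PGR, PGRMC1, FKBP5, NCOA1, PPP2R2C, PPM1A, WASHC4, TM7SF3). The members, the lists and the settings were chosen with earlier results of these data known. Lists are described by counts and medians, with no set test. Alternatives were the normalization, filter, floor, scale, spread estimate, brightest probe set, replicate block, each array left out, and the 3 arrays apart on the first component left out.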

Additional observations from a re-analysis of the deposited data

Results flagged for a closer look

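In 24 named genes at least 1 hormone moved all its arrays one way without the other hormone and the opposite way with it. The interactions of these genes did not pass the adjusted test in limma, and across all tested probe sets such a full reversal was found in 0.694% for progesterone and 0.58% for estrogen. The genes were named for low p-values, so their number is not set against these shares.

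Both hormones reversed in this sense in 12 of them, progesterone alone in 6 and estrogen alone in 6. In the 12 genes where both did, each hormone was higher alone against placebo and lower beside the other for LRRC58 (-1.39), MGAT4C (-1.91), ANKRD49 (-1.28), MPHOSPH10 (-0.83), SUZ12 (-0.90), KCNJ2 (-0.67) and NDUFB6 (-0.47). Each was lower alone and higher beside the other for LLGL1 (1.26), CSNK1E (1.28), DCLK2 (1.30), PITPNM2 (1.01) and OGT (1.18).

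Where progesterone alone reversed, it was higher alone against placebo and lower beside estrogen for NEK7 (-0.79), CA8 (-0.94) and TMEM64 (-1.02). It was lower alone and higher beside estrogen for CCDC181 (1.49), PATE4 (0.72) and IL17RC (0.66).

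Where estrogen alone reversed, it was lower alone and higher beside progesterone for SFPQ (1.80) and TAPBP (0.68). It was higher alone and lower beside progesterone for TMEM171 (-1.39), TIPRL (-1.13), DAB2 (-0.75) and FAM217B (-0.44).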

How the results depend on the processing

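The count of interactions past the threshold was 0 under every setting tried except linear intensity in place of log2 and some fits with 1 array left out. The linear setting also let the spread estimate follow intensity. On the log2 scale such a spread estimate, with robust settings, gave 0. On the linear scale 12 probe sets passed, all negative, and 7 of them were named. The values of 5 genes named above were -1205 for PPP2R2C (adjusted p = 0.000449), -1149 for SRRM2 (0.0162), -394 for PPM1A (0.00368), -254 for ANKRD11 (0.0209) and -253 for TM7SF3 (0.0209). This scale asks whether intensities, not fold changes, add up. With 1 array left out the count was 0 to 4, with 4 without the third placebo array and 2 without the first progesterone array. The count at an unadjusted p under 0.05 was 2993 with no filter, 1132 with median alignment, 1069 with a filter at the 75th percentile, 668 on the brightest probe set per gene, and 1397 to 2185 with 1 array left out.

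With no filter the shapes held 1115 probe sets for progesterone apart, 171 for estrogen apart, 345 for both hormones, 236 for placebo and 1126 for the crossed shape. At the 75th percentile they were 563 for progesterone apart, then 27, 97, 65 and 317 in the same order. On the brightest probe sets they were 298 for progesterone apart, then 22, 73, 43 and 232. Median alignment gave 561 for progesterone, 38 for estrogen, 75 for both hormones, 85 for placebo and 373 crossed, and leaving out the 3 arrays apart on the first component gave 109 for estrogen and 249 for both. With 1 array left out, progesterone apart ranged from 559 to 1301, estrogen from 34 to 196, both from 80 to 269, placebo from 65 to 424 and the crossed shape from 472 to 953.

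Counts of groups lying outside the other 9 arrays under further settings were added after seeing the data. Median alignment gave 156 for estrogen plus progesterone. No filter gave 520 for estrogen plus progesterone, 296 for estrogen and 286 for placebo. The 75th percentile gave 180, 79, 739 and 74 for estrogen plus progesterone, estrogen, progesterone and placebo, and the brightest probe sets gave 118, 47, 436 and 38. Progesterone had the highest count under each of these settings.

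Of 174 named results, 164 kept their sign under every setting run on them. The brightest-probe-set setting was not run on 29 whose named probe set was not the brightest, where the brightest gave 0.52 for ANKRD11 (against -1.69) and -0.08 for CCDC181 (against 1.49). The other 10 reversed under at least 1 setting. On the linear scale SLC18A2 was -57.4 and PGRMC1 -4.23, and without the 3 arrays apart GAD2 was 0.0546, SLC18A2 -0.12 and ESR2 -0.13. With 1 array left out the ranges were -0.0839 to 0.95 for TH, -0.89 to 0.0544 for CBLN3, -0.0571 to 0.43 for NPY, -0.30 to 0.0156 for GRIK1, -0.66 to 0.22 for GAD2, -0.0553 to 0.19 for GAD1, -0.12 to 0.25 for SLC18A2, -0.31 to 0.20 for the brightest TM7SF3 probe set, -0.24 to 0.33 for ESR2 and -0.0612 to 0.0648 for PGRMC1. The cause was not tested. Each of the 20 leading genes kept an unadjusted p under 0.05 in 12 of 12 such fits.

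The labels number the arrays 1 to 3 in each group and name no shared animal or batch. Deviations of same-numbered arrays correlated by a median of 0.027 over 18 pairs (7 over 0.1), against 0.012 over 36 other pairs (12 over 0.1). The interaction was fitted without a block, since only some of its group pairs met the limit for pairing. With the replicate block 0 interactions passed, 1775 had an unadjusted p under 0.05, and the shapes held 847 for progesterone, 62 for estrogen, 172 for both, 113 for placebo and 581 crossed. Blocks in 2 comparisons were added after seeing the data. Fitted on all 12 arrays, the block gave 0 past the threshold, with 807 unadjusted for estrogen plus progesterone against estrogen (786 without it) and 1027 against placebo (1017 without it). Fitted on the groups of each comparison alone it gave 0 and 1551, and 0 and 1621 (1121 without it).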
